A study of Mus musculus with 15 samples.

Results

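The genes described are 41 mouse genes of DNA replication and of the passage from G1 to S phase of the cell cycle. The rule lists them by name and uses no measured value, but the list was chosen with earlier results of these data known. All 41 were found among the 24015 genes counted, and all 41 were among the 13802 genes with enough counts to test. They fall into 7 roles, namely the 6 subunits of the MCM helicase, 6 origin recognition and licensing factors, 5 genes of CDC45 and the GINS complex, 6 of the sliding clamp and its loader, 8 of the DNA polymerases and primase, 4 of nucleotide supply, and 6 G1/S regulators including Uhrf1.

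The cells were fibroblasts cultured from mouse embryos (MEFs) of strain c57bl/6, and their RNA was sequenced. They were Nsd2(-/-), labelled NSD2 KO and called KO here, or Nsd2(+/+), called WT; NSD2 is a histone H3 lysine 36 methyltransferase. Pretreated cells had been given mouse interferon beta (IFNβ, 100 units per ml) for 3 h, washed, and kept without it for 24 h, whereas naive cells had not been pretreated. RNA was then taken after 2 h of interferon (a second exposure for pretreated cells and the first for naive cells) or at 0 h without it. The 8 groups were thus KO pretreated 2 h, WT pretreated 2 h, KO naive 2 h, WT naive 2 h, KO pretreated 0 h, WT pretreated 0 h, KO naive 0 h and WT naive 0 h, with 2 libraries each except KO naive 2 h, which had 1. The labels do not say whether replicate libraries came from separate cultures or embryos, nor how many cell lines stand behind each genotype, so each p-value rests on library-to-library spread that may be only technical.

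Before S phase, the origin recognition complex together with CDC6 and CDT1 loads the MCM helicase onto replication origins. At the G1/S transition, cyclin E with its kinase frees E2F transcription factors from the retinoblastoma proteins, E2F target genes rise, and CDC45 and GINS join MCM to form the active helicase, behind which polymerases alpha, delta and epsilon copy the strands with the help of the PCNA clamp and its RFC loader. Type I interferons are best known for inducing antiviral genes, and in many cell types they also slow proliferation.

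Depth was 17170845 to 44116418 gene counts per library. Levels are in CPM, counts relative to the total of gene counts in the library, adjusted between libraries by TMM factors unless plain CPM is stated. The ribosomal RNA gene Rn45s and Lars2 together took 10.6% to 29.4% of the counts; the share was under 20% in WT naive 0 h replicate 1, WT pretreated 2 h replicate 1 and KO pretreated 0 h replicate 2, which raises the plain CPM of all other genes there. Whsc1, the older symbol of Nsd2, had 91.5 to 123.9 plain CPM in the KO libraries and 105.5 to 150.7 in the WT libraries. It was lower in KO in all 4 conditions, with log2 differences of −0.18 to −0.39 (edgeR adjusted p from 1.2e-08 to 0.0062), but gene-level counts cannot show whether the deleted part is missing. Marker levels in this paragraph are plain CPM. The 10 fibroblast markers together had 11118 to 20298 CPM. Yet Thy1 was at 29.6 to 33.9 CPM in KO against 0.0474 to 0.175 in WT, and Dcn at 1.17 to 4.76 CPM in KO against 16.3 to 20.6 in WT. Of the other lists, macrophage and blood markers summed to at most 21.1 CPM and adipocyte markers to at most 10.8 CPM, while endothelial, epithelial, skeletal muscle and nerve and glia markers summed to at most 1.78, 2.76, 0.962 and 3.96 CPM, with Emr1, Hba-a1, Hbb-b1, Emcn, Myod1, Ckm and Rbfox3 at 0 in every library.

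Promoter sequences are shown because many members are textbook E2F targets, so a high share of E2F motifs in this list was likely in advance. RefSeq promoters of the GRCm38.p6 build, from 250 bases before to 50 bases after the annotated start, were found for 33 of the 41 members. An E2F motif, spelled TTTCCCGC, TTTCGCGC, TTTGCCGC or TTTGGCGC on either strand, occurred in 14 of these 33 promoters (42.4%), against 2.61% of 27018 promoters of all genes and 4.54% of 10249 promoters of genes tested. The 14 were Mcm3, Mcm5, Mcm6, Mcm7, Orc1, Cdc6, Cdt1, Gins3, Rfc3, Pola1, Pold1, Pole2, Uhrf1 and E2f2, so 4 of the 5 MCM promoters available held one and none of the 4 nucleotide supply promoters did. A CCAAT box occurred in 21 of the 33 (63.6%), against 41.1% of all promoters and 43.0% of those of genes tested. The CHR element TTTGAA, which marks many G2/M genes, occurred in 5 (15.2%), against 20.2% and 14.3%. The interferon-stimulated response element (ISRE), as a motif added after the data were seen, occurred in 2 (6.06%), against 3.99% and 3.56%. A match describes letters in this window and is not evidence of binding, and the same holds for its absence. Whether a motif bears on the changes that follow was not tested. Members called higher in all 4 comparisons of pretreated with naive cells included Mcm3, with an E2F motif, and Rrm1, without one.

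The 250 bases before the start follow for Mybl2, Cdc6 and Rrm2. These were called in all 4 comparisons of pretreated with naive cells and had the smallest p in WT at 0 h. The selection rule allowed up to 6 promoters, and only the first 3 in its order are shown. Mcm5 and Mcm6 were picked after their matches and values were seen because they hold the motif in several copies. The printed promoters are therefore not an even sample of the members. Capitals mark E2F and CCAAT matches on either strand, and sequences run 5′ to 3′ along the strand of the gene. Mybl2 lies on the plus strand at chr2:163054385-163054634, Rrm2 on the plus strand at chr12:24708004-24708253, Cdc6 on the plus strand at chr11:98907901-98908150, Mcm5 on the plus strand at chr8:75109259-75109508 and Mcm6 on the minus strand at chr1:128359706-128359955.
Mybl2: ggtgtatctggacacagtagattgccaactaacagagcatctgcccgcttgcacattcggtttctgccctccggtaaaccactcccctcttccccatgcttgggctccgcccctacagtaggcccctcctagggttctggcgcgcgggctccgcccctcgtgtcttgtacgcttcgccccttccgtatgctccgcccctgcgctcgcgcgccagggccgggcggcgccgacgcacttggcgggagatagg
Rrm2: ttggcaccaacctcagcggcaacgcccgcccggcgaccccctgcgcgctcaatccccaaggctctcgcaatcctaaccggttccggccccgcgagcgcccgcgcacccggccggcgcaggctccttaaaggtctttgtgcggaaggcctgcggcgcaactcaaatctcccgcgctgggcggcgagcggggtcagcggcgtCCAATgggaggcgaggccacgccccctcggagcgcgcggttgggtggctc
Cdc6: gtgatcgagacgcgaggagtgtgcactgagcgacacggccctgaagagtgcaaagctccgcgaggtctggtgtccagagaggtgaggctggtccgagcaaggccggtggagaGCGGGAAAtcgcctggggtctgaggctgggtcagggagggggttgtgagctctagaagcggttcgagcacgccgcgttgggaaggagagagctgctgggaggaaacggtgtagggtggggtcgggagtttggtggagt
Mcm5: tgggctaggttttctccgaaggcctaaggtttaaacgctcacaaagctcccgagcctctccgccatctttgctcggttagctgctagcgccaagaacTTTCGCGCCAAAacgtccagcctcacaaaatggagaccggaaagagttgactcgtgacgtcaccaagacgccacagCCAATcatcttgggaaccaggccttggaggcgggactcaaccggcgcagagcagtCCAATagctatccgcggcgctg
Mcm6: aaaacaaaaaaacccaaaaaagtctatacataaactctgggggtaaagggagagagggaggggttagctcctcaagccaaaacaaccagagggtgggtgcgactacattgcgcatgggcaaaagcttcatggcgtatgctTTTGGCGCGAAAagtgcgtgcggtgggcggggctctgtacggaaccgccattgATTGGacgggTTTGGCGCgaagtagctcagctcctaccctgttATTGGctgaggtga
Cdc6 holds 1 E2F match, which begins 138 bases before the start. Mcm5 holds 2 overlapping E2F matches, beginning 153 and 149 bases before the start, and 2 CCAAT boxes. Mcm6 holds 3 E2F matches, beginning 110, 106 and 47 bases before the start, of which the first pair overlap, and 2 CCAAT boxes read on the other strand. Mybl2 and Rrm2 hold none of the 4 E2F spellings in these bases, and Rrm2 has 1 CCAAT box beginning 50 bases before the start. Other spellings of an E2F site were not searched, so a site of another spelling may be present.

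The main question was how replication genes stood in pretreated cells 24 h after interferon had been washed out, relative to naive cells. They were higher after pretreatment in both genotypes, by modest amounts. In KO at 0 h, 34 of 41 members were called higher in pretreated cells and 0 lower (edgeR quasi-likelihood test, adjusted p below 0.05 over all genes tested), against 11.1% of all genes called higher, 10.6% called lower and 21.7% called in either direction. In WT at 0 h, 38 members were called higher and 0 lower, against 12.6% and 11.4% of all genes (24% in either direction). The median log2 change of the members was 0.26 in KO and 0.38 in WT, beside medians of −0.014 and −0.0036 over all genes tested. The 3 members that missed the threshold in WT were Rfc4, Rfc5 and Pold2, and the 7 in KO were Gins1, Gins3, Gins4, Rfc4, Pold2, E2f1 and E2f2. All 41 fitted changes were above 0 in both genotypes. In bulk RNA, more cells in a phase of the cycle and more RNA per cell cannot be told apart. The labels used here give no mock wash or matched time in culture for naive cells. Interferon, washing and time in culture therefore cannot be told apart in these comparisons. The term pretreatment effect stands for the whole difference between pretreated and naive cells.

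After 2 h of interferon, the second exposure was compared with the first. In KO, 28 members were called higher in pretreated cells and 0 lower, against 11.2% and 7.61% of all genes (18.8% in either direction); the KO naive 2 h group has 1 library, and its spread was borrowed from the other groups. In WT, 37 were called higher and 0 lower, against 13.2% and 11.8% (25% in either direction). The median log2 change was 0.31 in KO and 0.43 in WT, beside 0.0087 and −0.0033 over all genes.

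Called higher in all 4 comparisons were 26 members, a state reached by 2.54% of all genes tested; 0 members were called lower in all 4, against 1.61% of all genes. They comprise all 6 MCM genes, all 6 licensing genes, Cdc45, Gins2, Rfc2, Pola2, Prim2, Pold1, Pole, Rrm1, Rrm2, Tk1, Ccne1, Ccne2, Uhrf1 and Mybl2. Another 8 were called in 3 comparisons, 3 in 2 (Gins1, Rfc5 and E2f2), 3 in 1 (Gins4, Pold2 and E2f1), and Rfc4 in 0. At 0 h, 33 members were called higher in both genotypes, which is 97.1% of the KO calls and 86.8% of the WT calls. At 2 h, 27 were shared, 96.4% of the KO calls and 73% of the WT calls.

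The summed level of the 41 genes separated pretreated from naive libraries within every genotype and time. At 0 h it was 3441 and 3497 CPM in the KO pretreated libraries against 2845 and 2822 in KO naive, and 3680 and 3651 in WT pretreated against 2835 and 2794 in WT naive. At 2 h it was 3663 and 3602 in KO pretreated against 2980 in the KO naive library, and 3858 and 3638 in WT pretreated against 2766 and 2770 in WT naive. The 8 pretreated libraries thus ran from 3441 to 3858 CPM and the 7 naive ones from 2766 to 2980, with no overlap. On plain CPM the sum was 3373 and 3922 in KO pretreated 0 h against 2997 and 3006 in KO naive 0 h, and 3723 and 3556 in WT pretreated 0 h against 3456 and 2811 in WT naive 0 h. Plain CPM at 2 h gave 3421 and 3406 in KO pretreated against 2723 in KO naive, and 4000 and 3256 in WT pretreated against 2585 and 2647 in WT naive. Groups of 1 genotype and time did not overlap on that scale either, although the 3 libraries with little Rn45s and Lars2 stood above their partners.

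**Figure D1:**
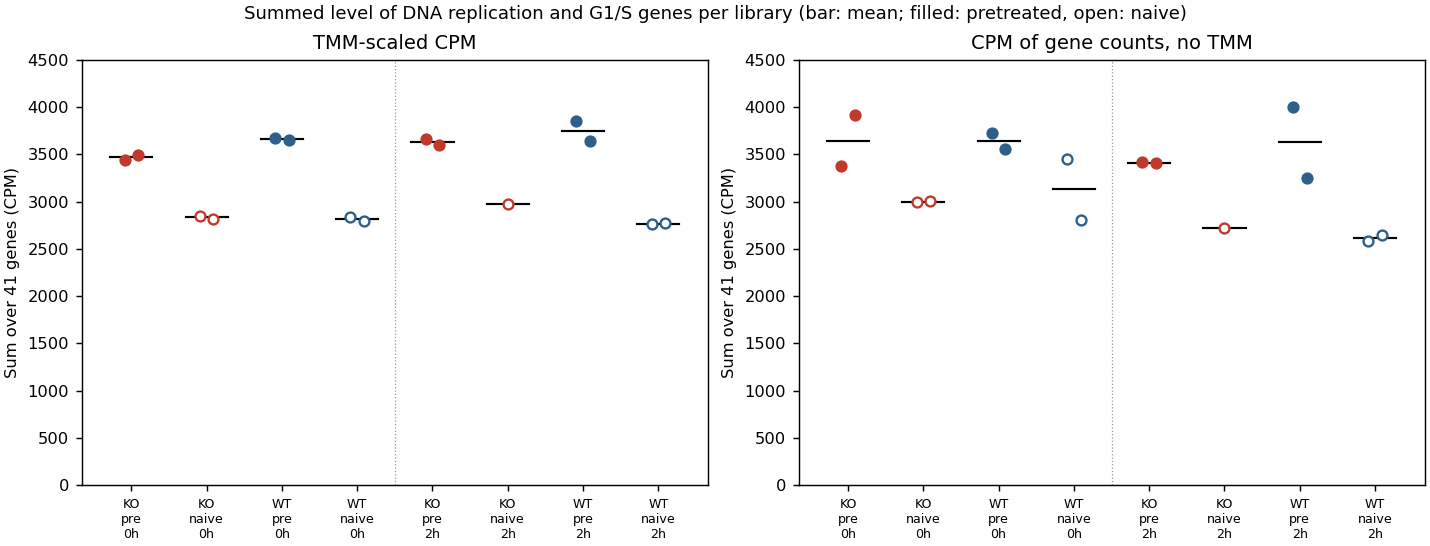
Summed level of the 41 genes in each library by genotype and time, pretreated left of naive, on TMM-scaled CPM (left panel) and plain CPM (right panel); each point is 1 library, and a bar is the group mean. On the TMM scale the 8 pretreated libraries lie between 3441 and 3858 CPM and the 7 naive libraries between 2766 and 2980 CPM.

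Gene by gene, the libraries of the 2 groups did not overlap, pretreated above naive, for 37 members in KO and 40 in WT at 0 h and for 39 and 41 at 2 h. Among all genes tested that share was 27.6%, 28.3%, 41.9% and 29.7%. On plain CPM the counts were 35, 26, 40 and 41, with 1 member below in WT at 0 h and 1 in KO at 2 h, beside 16.7%, 5.99%, 49% and 23.6% of all genes. The fibroblast marker sum was 12270 and 13581 plain CPM in KO pretreated 0 h against 13384 and 13946 in KO naive 0 h, and 13951 and 13490 in WT pretreated 0 h against 20298 and 16224 in WT naive 0 h. At 2 h it was 12981 and 13092 in KO pretreated against 11118 in KO naive, and 13693 and 12626 in WT pretreated against 15149 and 15944 in WT naive, so it was higher after pretreatment in KO at 2 h and lower in WT at both times. Its part in the result was not tested. Leaving out the 3 libraries with little Rn45s and Lars2, 29 members were called higher in KO and 37 in WT at 0 h, and 28 and 31 at 2 h.

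**Figure D2:**
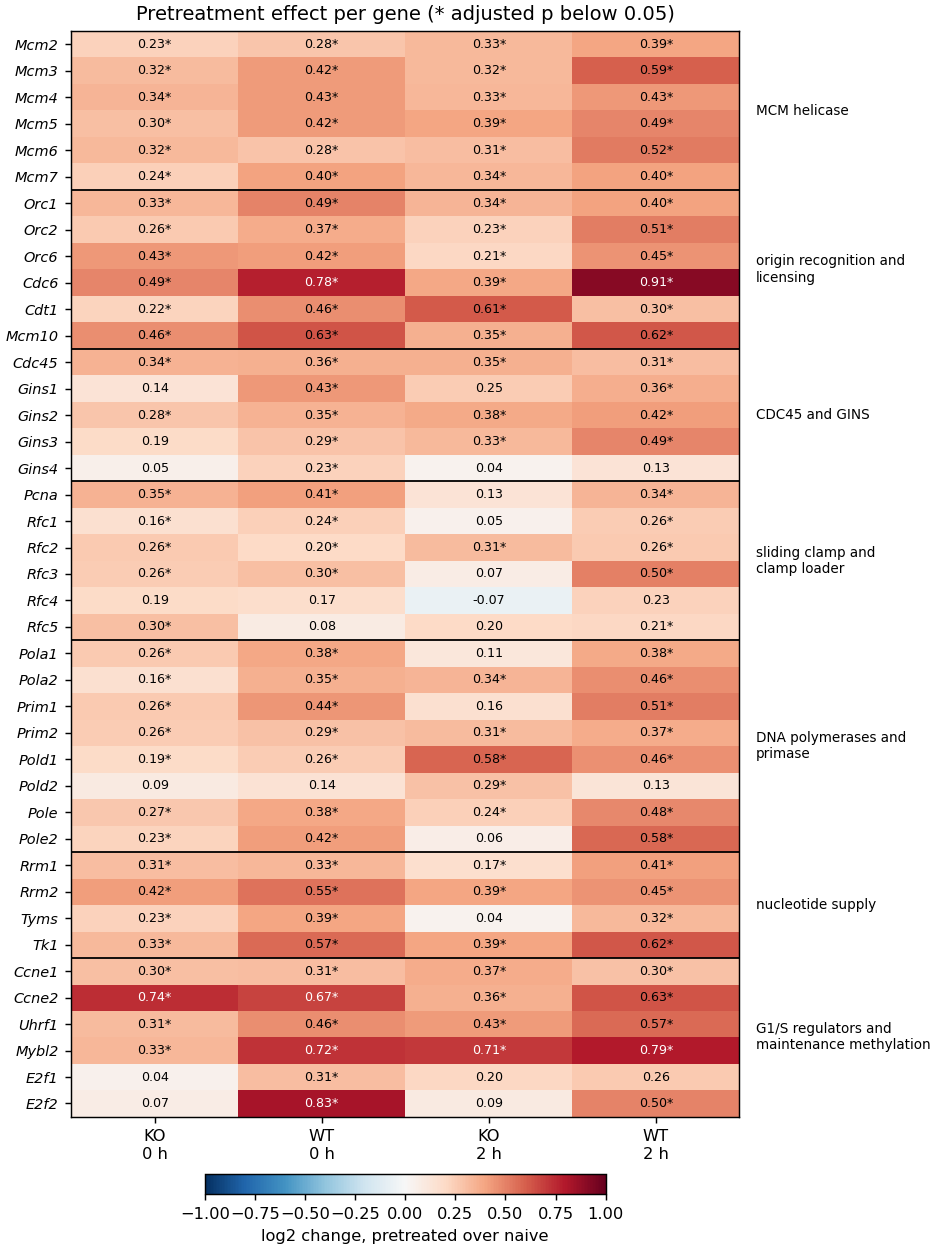
Fitted log2 change, pretreated over naive, for each of the 41 genes (rows, grouped by role) in KO and WT at 0 h and 2 h (columns); red is higher in pretreated cells, and a star marks an edgeR adjusted p below 0.05. The columns have 34, 38, 28 and 37 starred genes, all higher in pretreated cells.

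Every origin licensing gene was called higher in all 4 comparisons. Cdc6, the ATPase that recruits MCM to origins and whose promoter shown above has 1 E2F match, had 32.0 and 32.4 CPM in KO pretreated 0 h against 21.5 and 24.0 in KO naive 0 h, and 40.0 and 36.5 in WT pretreated 0 h against 22.1 and 22.6 in WT naive 0 h. At 2 h it had 28.4 and 28.6 CPM in KO pretreated against 21.8 in KO naive, and 35.6 and 35.8 in WT pretreated against 18.5 and 19.6 in WT naive. All pretreated libraries were above all naive ones. The log2 change was 0.49 ± 0.066 (SE) in KO and 0.78 ± 0.067 in WT at 0 h (edgeR adjusted p = 2.0e-06 and 8.5e-10), and 0.39 ± 0.086 in KO and 0.91 ± 0.071 in WT at 2 h (adjusted p = 0.0018 and 3.6e-11).

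Cdt1, the partner of CDC6 in MCM loading, had 37.1 and 35.1 CPM in KO pretreated 0 h against 29.0 and 32.4 in KO naive 0 h, and 43.5 and 42.3 in WT pretreated 0 h against 31.3 and 30.9 in WT naive 0 h. At 2 h its level was 29.5 and 28.5 CPM in KO pretreated against 19 in KO naive, and 44.1 and 42.8 in WT pretreated against 34.2 and 36.8 in WT naive. The lone KO naive 2 h library was the lowest of all 15. The pretreatment change at 2 h was 0.61 ± 0.088 in KO and 0.30 ± 0.064 in WT (edgeR adjusted p = 8.6e-06 and 6.8e-04). Mcm10, which helps to activate the loaded helicase, had 54.3 and 56.2 CPM in KO pretreated 0 h against 37.5 and 42.2 in KO naive 0 h, and 54.3 and 52.5 in WT pretreated 0 h against 35.3 and 33.5 in WT naive 0 h. At 2 h Mcm10 had 67.8 and 65.1 CPM in KO pretreated against 52.1 in KO naive, and 55.5 and 54.7 in WT pretreated against 35.5 and 36.1 in WT naive. Its log2 change was 0.46 ± 0.056 in KO and 0.63 ± 0.059 in WT at 0 h, both called. Orc1, Orc2 and Orc6, subunits of the origin recognition complex, had log2 changes of 0.21 to 0.43 in KO and 0.37 to 0.51 in WT over both times.

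The MCM genes, which encode the ring of the replicative helicase, moved within a narrow band. Their log2 changes ran from 0.23 to 0.34 in KO and 0.28 to 0.43 in WT at 0 h, and from 0.31 to 0.39 in KO and 0.39 to 0.59 in WT at 2 h, and all 24 tests were called. Mcm2 had 203 and 203 CPM in KO pretreated 0 h against 173 and 174 in KO naive 0 h, and 281 and 275 in WT pretreated 0 h against 232 and 227 in WT naive 0 h. At 2 h Mcm2 had 208 and 198 CPM in KO pretreated against 162 in KO naive, and 294 and 274 in WT pretreated against 218 and 215 in WT naive. The groups did not overlap within a genotype, and every WT library was above every KO library. Mcm2 changed by 0.23 ± 0.043 in KO and 0.28 ± 0.042 in WT at 0 h (edgeR adjusted p = 2.1e-04 and 1.35e-05).

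Cdc45 and the GINS subunits, the other parts of the active helicase, were called less evenly across comparisons. In KO 2 of 5 were called at 0 h and 3 at 2 h, and in WT 5 and 4. Cdc45 and Gins2 were called in all 4 comparisons, with log2 changes of 0.28 to 0.38 in KO and 0.31 to 0.42 in WT. Gins4 had changes of 0.05 in KO and 0.23 in WT at 0 h and of 0.04 and 0.13 at 2 h, of which the WT 0 h change passed the test (edgeR adjusted p = 0.0057).

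The clamp and clamp loader genes had the smallest role median in WT at both times and in KO at 2 h. Pcna, the sliding clamp that tethers polymerases, had 249.5 and 249 CPM in KO pretreated 0 h against 196 and 195 in KO naive 0 h, and 237 and 232 in WT pretreated 0 h against 173 and 180.4 in WT naive 0 h. At 2 h Pcna had 268 and 252 CPM in KO pretreated against 237 in KO naive, and 274 and 251 in WT pretreated against 209 and 206 in WT naive. The change was 0.35 ± 0.045 in KO and 0.41 ± 0.046 in WT at 0 h, both called, and at 2 h 0.13 ± 0.055 in KO and 0.34 ± 0.045 in WT (edgeR adjusted p = 0.092 and 9.7e-07). Rfc4, a loader subunit and the 1 member called in no comparison, had 22.3 and 23.1 CPM in KO pretreated 0 h against 19.3 and 20.4 in KO naive 0 h, and 16.5 and 16.4 in WT pretreated 0 h against 13.9 and 15.9 in WT naive 0 h. At 2 h Rfc4 had 22.1 and 21.0 CPM in KO pretreated against 22.6 in KO naive, the 1 case among the members of a pretreated group below its naive library, and 17.4 and 14.8 in WT pretreated against 13.9 and 13.5 in WT naive. Its fitted changes ran from −0.07 to 0.23 (edgeR adjusted p from 0.058 to 0.70). Of the loader subunits Rfc1, Rfc2, Rfc3 and Rfc5, 4 were called in KO and 3 in WT at 0 h, and at 2 h 1 in KO (Rfc2) and 4 in WT.

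Of the 8 polymerase and primase genes, 7 were called in each genotype at 0 h, all but Pold2, the second subunit of polymerase delta. At 2 h, 5 were called in KO and 7 in WT. Pold1, the catalytic subunit of polymerase delta, had 68.4 and 64.4 CPM in KO pretreated 0 h against 57.1 and 59.0 in KO naive 0 h, and 75.4 and 72.3 in WT pretreated 0 h against 63.1 and 60.0 in WT naive 0 h. At 2 h Pold1 had 67.6 and 67.5 CPM in KO pretreated against 45.1 in the KO naive library, the lowest of the 15, and 75.7 and 69.5 in WT pretreated against 52.1 and 54.1 in WT naive. The change at 2 h was 0.58 ± 0.068 in KO and 0.46 ± 0.055 in WT (edgeR adjusted p = 3.9e-07 and 1.6e-07). Pola1, Pola2, Prim1 and Prim2, which make up the polymerase alpha and primase complex, had changes of 0.16 to 0.26 in KO and 0.29 to 0.44 in WT at 0 h, all called.

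The nucleotide supply genes were called in 15 of 16 tests. Rrm1 and Rrm2, the subunits of ribonucleotide reductase, changed by 0.31 ± 0.040 and 0.42 ± 0.046 in KO and by 0.33 ± 0.040 and 0.55 ± 0.047 in WT at 0 h. Tk1, the thymidine kinase of the salvage pathway, changed by 0.33 ± 0.053 in KO and 0.57 ± 0.056 in WT. The exception was Tyms, thymidylate synthase, in KO at 2 h, with a log2 change of 0.04 ± 0.073 (edgeR adjusted p = 0.78).

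At 0 h the G1/S regulators held the largest change of the 41 in each genotype, and in KO also the smallest. In WT their smallest change was 0.31. Ccne2, a cyclin E, had 19.8 and 18.3 CPM in KO pretreated 0 h against 11.01 and 11.8 in KO naive 0 h, and 19.1 and 19.2 in WT pretreated 0 h against 11.7 and 12.7 in WT naive 0 h. At 2 h Ccne2 had 19.9 and 21.9 CPM in KO pretreated against 16.3 in KO naive, and 20.8 and 18.6 in WT pretreated against 12.4 and 13.3 in WT naive. At 0 h the change was 0.74 ± 0.084 in KO, the largest of the 41 there, and 0.67 ± 0.087 in WT (edgeR adjusted p = 1.4e-07 and 1.0e-06). The Mybl2 promoter shown above holds none of the 4 E2F spellings searched, and a site of another spelling may be present. Mybl2 encodes the B-Myb transcription factor of proliferating cells. It had 40.95 and 40.3 CPM in KO pretreated 0 h against 33.9 and 31.0 in KO naive 0 h. In WT it had 48.6 and 47.3 CPM in pretreated 0 h against 29.7 and 28.2 in naive 0 h. At 2 h Mybl2 had 42.8 and 39.8 CPM in KO pretreated against 25.4 in KO naive, and 47.3 and 46.5 in WT pretreated against 26.9 and 27.2 in WT naive. The change was 0.33 ± 0.059 in KO and 0.72 ± 0.061 in WT at 0 h, and 0.71 ± 0.079 and 0.79 ± 0.063 at 2 h, each past the threshold.

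E2f2, an activating E2F, had 11.5 and 11.5 CPM in KO pretreated 0 h against 10.7 and 11.1 in KO naive 0 h, and 6.12 and 6.32 in WT pretreated 0 h against 3.77 and 2.89 in WT naive 0 h. At 2 h it had 7.89 and 7.97 CPM in KO pretreated against 7.46 in KO naive, and 4.51 and 4.30 in WT pretreated against 3.36 and 2.78 in WT naive. Every KO library was above every WT library, and the pretreated and naive levels lay close together in KO. The change was 0.07 ± 0.096 in KO and 0.83 ± 0.13 in WT at 0 h (edgeR adjusted p = 0.65 and 2.4e-05), the WT value being the largest of the 41. Its relative E2f1 changed by 0.04 ± 0.089 in KO and 0.31 ± 0.093 in WT at 0 h (edgeR adjusted p = 0.79 and 0.014). Uhrf1, which guides maintenance DNA methylation at replication forks, changed by 0.31 ± 0.044 in KO and 0.46 ± 0.045 in WT at 0 h, both called.

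**Figure D3:**
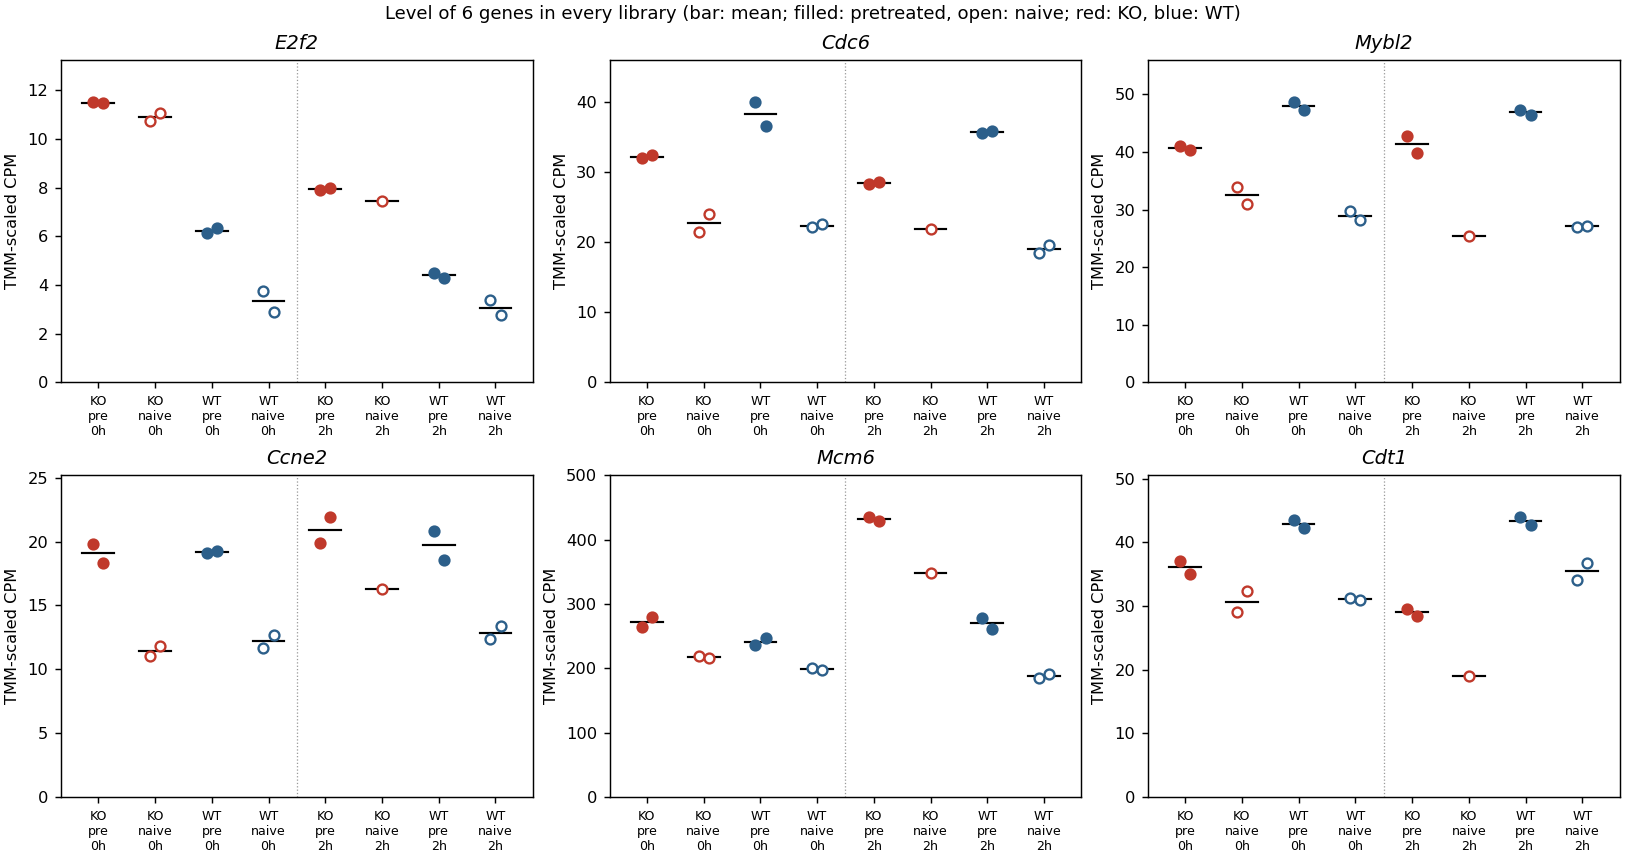
Levels of E2f2, Cdc6, Mybl2, Ccne2, Mcm6 and Cdt1 in every library (TMM-scaled CPM, axes from 0), by genotype and time with pretreated (filled) left of naive (open); each point is 1 library, and a bar is the group mean. Cdc6 lies at 28.4 CPM or above in every pretreated library and at 24.0 or below in every naive one, whereas the KO libraries of E2f2 differ little between pretreated and naive.

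Whether the pretreatment effect differed between genotypes was tested as an interaction, KO minus WT, on the log2 scale. At 0 h, 0 members were called higher and 2 lower, against 1.71% and 1.51% of all genes (3.22% in either direction). These were E2f2, with a difference of −0.75 ± 0.16, and Mybl2, with −0.39 ± 0.085 (edgeR adjusted p = 0.0069 each). At 2 h, 0 were called higher and 8 lower, against 5.1% and 3.94% of all genes (9.04% in either direction). The 8 were Cdc6 (−0.53 ± 0.11), Pole2 (−0.51 ± 0.14), Rfc3 (−0.43 ± 0.10), Prim1 (−0.35 ± 0.088), Orc2 (−0.29 ± 0.089), Mcm3 (−0.27 ± 0.066), Pola1 (−0.27 ± 0.070) and Rrm1 (−0.24 ± 0.063), with edgeR adjusted p from 0.0023 to 0.042. The median difference over the 41 was −0.11 at 0 h and −0.14 at 2 h, beside 0.0014 and 0.0092 over all genes. With 1 library left out it ran from −0.12 to −0.091 at 0 h and from −0.19 to −0.10 at 2 h. The members also differed together between replicates, by a median log2 of 0.092 between the WT pretreated 2 h libraries. Among these 10 calls, E2f2 at 0 h and Cdc6 at 2 h held in all 21 alternative settings, while each of the others was lost in 1 to 8 of them. Leaving out the 3 libraries with little Rn45s and Lars2 left 1 lower call at 0 h and 2 at 2 h. The 8 calls at 2 h rest on the lone KO naive library, and became 4 without WT naive replicate 1 or WT pretreated replicate 1 at 2 h, 5 without WT naive replicate 2 and 13 without WT pretreated replicate 2. At 0 h, leaving out KO naive replicate 1 left 1 call.

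KO was compared directly with WT in each condition. Among all genes tested, most were called in every condition, namely 66.3% and 64.7% in pretreated cells at 2 h and 0 h, and 61.2% and 67.1% in naive cells. In pretreated cells 12 members were higher and 19 lower in KO at 2 h (35.6% and 30.7% of all genes), and 10 higher and 19 lower at 0 h (32.8% and 31.8%). In naive cells 16 were higher and 9 lower at 2 h, with 1 KO library (32.3% and 28.8%), and 17 higher and 9 lower at 0 h (34.3% and 32.7%). The median difference was −0.11 and −0.095 in pretreated cells at 2 h and 0 h, and 0.079 and 0.024 in naive cells.

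Mcm3, Mcm6, Rfc4, Prim2, Pole2, Tyms, Tk1, Uhrf1 and E2f2, 9 members in all, were higher in KO in all 4 conditions, and Mcm2, Orc1, Rfc5, Pold2, Rrm1 and Ccne1, 6 members, were lower in all 4. Among all genes 22.9% and 20.8% did so, and neither count of members exceeds that share. Ccne1, the other cyclin E, was described after its values were seen. It had 23.5 and 21.6 CPM in KO pretreated 0 h against 44.6 and 46.0 in WT pretreated 0 h, and 19.3 and 17.6 in KO naive 0 h against 36.5 and 36.5 in WT naive 0 h. At 2 h Ccne1 had 20.2 and 21.3 CPM in KO pretreated against 46.1 and 41.1 in WT pretreated, and 16 in the KO naive library against 36.7 and 34.2 in WT naive. No KO library reached any WT library. The log2 difference was −1.002 ± 0.068 and −0.997 ± 0.071 in pretreated and naive cells at 0 h, and −1.08 ± 0.069 and −1.15 ± 0.096 at 2 h (edgeR adjusted p at most 1.3e-11).

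In the other direction, E2f2 was higher in KO by 0.89 ± 0.11 in pretreated and 1.64 ± 0.12 in naive cells at 0 h, and by 0.84 ± 0.12 and 1.25 ± 0.16 at 2 h. Pole2, the accessory subunit of polymerase epsilon and likewise described after its values were seen, had 28.2 and 30.1 CPM in KO pretreated 0 h against 17.8 and 18.5 in WT pretreated 0 h, and 25.0 and 24.9 in KO naive 0 h against 13.2 and 14.4 in WT naive 0 h. Its log2 difference was 0.68 ± 0.081 in pretreated and 0.87 ± 0.085 in naive cells at 0 h, both called. Subunits of 1 complex could differ in sign. At 0 h Mcm2 was lower in KO, at −0.45 and −0.40 in pretreated and naive cells, while Mcm3 was higher, at 0.25 and 0.35. Rrm1 was lower, at −0.45 and −0.43, while Rrm2 differed by 0.02 and 0.14. Both signs were also common among all genes at 0 h. In pretreated cells 32.8% were called higher and 31.8% lower in KO, and in naive cells 34.3% and 32.7%.

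**Figure D4:**
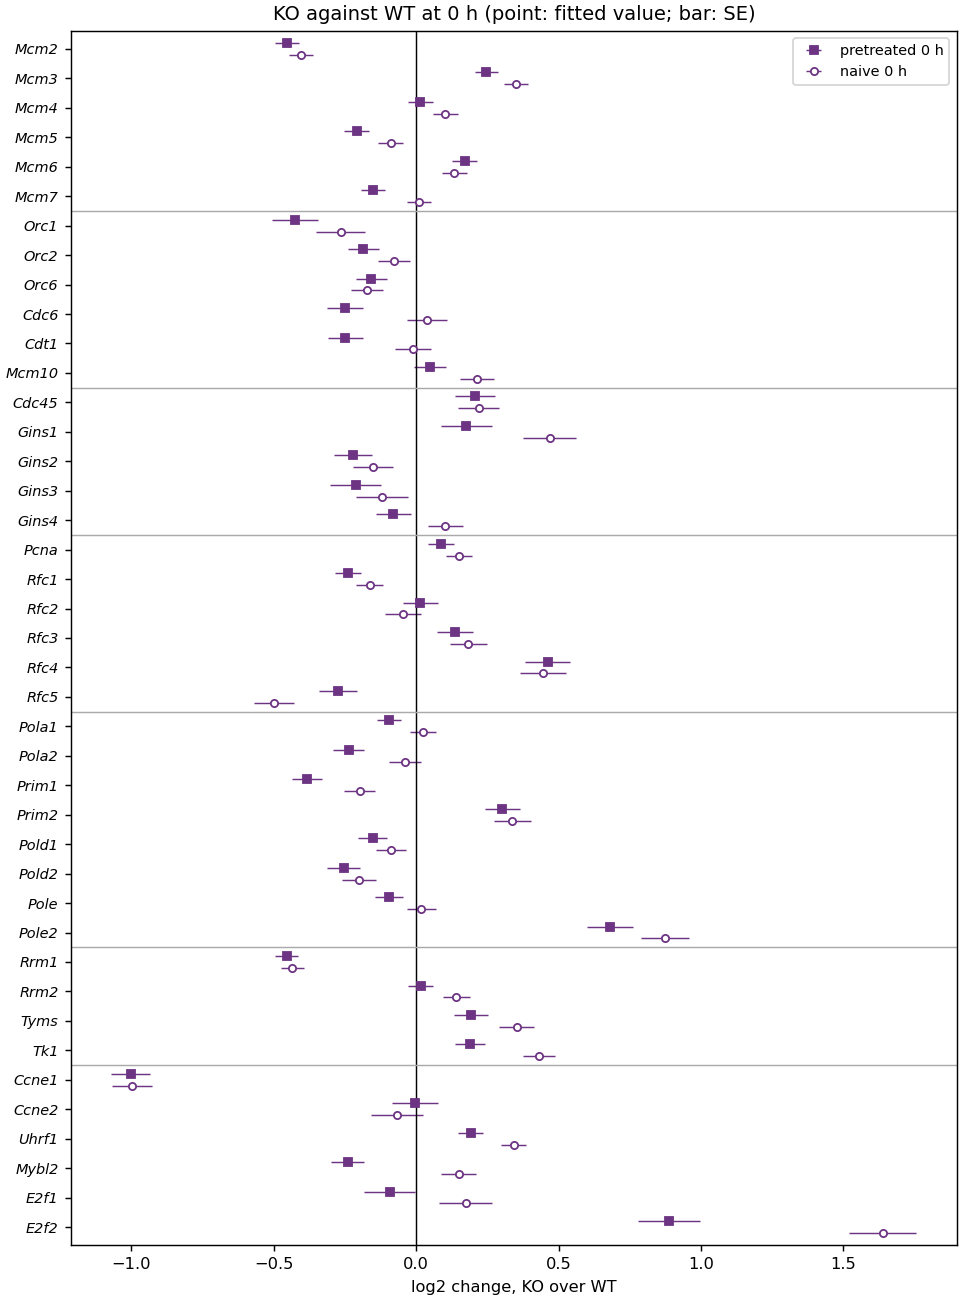
Log2 difference, KO over WT, of the 41 genes at 0 h in pretreated (filled squares) and naive cells (open circles); bars are standard errors of the fit. Ccne1 lies at −1.002 in pretreated and −0.997 in naive cells, and E2f2 at 0.89 in pretreated and 1.64 in naive cells.

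The effect of the 2 h exposure itself was read within each genotype and state. In pretreated cells 3 rose and 3 fell in KO (17.9% and 13.6% of all genes, 31.5% in either direction), and 2 rose and 1 fell in WT (12.2% and 10.5%, 22.7% in either direction). Of the calls over all genes in WT pretreated cells 53.6% were higher, and 63.9% when Rn45s and Lars2 were removed. In naive cells 10 rose and 7 fell in KO, where 2 h has 1 library (19.1% and 17.2%, 36.2% in either direction), and 3 rose and 4 fell in WT (15% and 15.6%, 30.6% in either direction). Median changes lay between −0.037 and 0.018 in the 4 comparisons. Pcna rose by 0.28 ± 0.055 in KO naive, 0.24 ± 0.046 in WT naive and 0.16 ± 0.045 in WT pretreated cells, and in KO pretreated cells its change was 0.06 ± 0.044 (edgeR adjusted p = 0.32).

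The Mcm6 promoter shown above has 3 E2F matches, and the promoters of Mcm3, Mcm5 and Mcm7 have 2 each. Mcm6 stood apart from the other helicase subunits in KO, and was described after its values were seen. It had 436 and 429 CPM in KO pretreated 2 h against 264 and 280.3 in KO pretreated 0 h, and 349 in KO naive 2 h against 219.7 and 216 in KO naive 0 h. In WT it had 278 and 261 CPM in pretreated 2 h against 236 and 247 in pretreated 0 h, and 185 and 192 in naive 2 h against 200 and 197 in naive 0 h. The change was 0.67 ± 0.043 and 0.68 ± 0.052 in KO pretreated and naive cells (edgeR adjusted p = 8.0e-14 and 7.5e-12), and 0.16 ± 0.044 and −0.08 ± 0.045 in WT (adjusted p = 0.0081 and 0.22). Changes of the other 5 MCM genes ran from −0.11 to 0.09, with 0 called. Dars, a neighbour of Mcm6 in the RefSeq order, changed by 0.12 and 0.34 in KO pretreated and naive cells (edgeR adjusted p = 0.026 and 3.5e-06) and by 0.05 and 0.03 in WT (adjusted p = 0.48 and 0.68). Lct, the other neighbour, averaged 0.70 plain CPM. It changed by 1.31 and 0.80 in KO pretreated and naive cells (edgeR adjusted p = 0.0092 and 0.29) and by −0.13 and −0.52 in WT (adjusted p = 0.86 and 0.44). Change at a neighbour was not particular to Mcm6. Hmox1, next to Mcm5, changed by 1.13 and 1.01 in KO pretreated and naive cells and by 1.36 and 1.67 in WT. Other neighbours moved little, such as Cds2 next to Pcna, with −0.07 to −0.03. A shared local effect was not tested.

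Cdt1 moved the other way in KO. It had 29.5 and 28.5 CPM at 2 h against 37.1 and 35.1 at 0 h in KO pretreated cells, and 19 at 2 h against 29.0 and 32.4 at 0 h in KO naive cells, with no overlap. It changed by −0.31 ± 0.063 and −0.70 ± 0.087 in KO pretreated and naive cells (edgeR adjusted p = 1.9e-04 and 1.5e-07), and by 0.02 ± 0.062 and 0.18 ± 0.065 in WT (adjusted p = 0.88 and 0.034). Gins3, a GINS subunit described after its values were seen, rose by 0.43 ± 0.085 and 0.30 ± 0.11 in KO pretreated and naive cells, with 24.8 and 23.4 CPM at 2 h against 16.9 and 18.9 at 0 h in pretreated cells. E2f2 fell by 0.54 and 0.55 in KO pretreated and naive cells and by 0.49 in WT pretreated cells on the log2 scale, and in WT naive cells its change was −0.17 (edgeR adjusted p = 0.45).

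The genotype difference of the interferon effect, KO minus WT, was tested after these values were seen. In pretreated cells 2 members were called higher, Mcm6 by 0.51 ± 0.062 and Gins3 by 0.39 ± 0.12, and 1 lower, Cdt1 by −0.33 ± 0.088 (edgeR adjusted p = 4.1e-07, 0.046 and 0.013), against 6.53% and 2.51% of all genes (9.03% in either direction). In naive cells 5 were called higher and 1 lower, against 8.46% and 6.85% (15.3% in either direction). These were Mcm6 (0.75 ± 0.069), Gins3 (0.46 ± 0.15), Ccne2 (0.41 ± 0.14), Mcm10 (0.33 ± 0.094), Rfc3 (0.31 ± 0.10) and, lower, Cdt1 (−0.88 ± 0.11). Mcm6 in both states and Cdt1 in naive cells held in all alternative settings, and each of the other 6 calls was lost in 4 to 14 of 21. The naive values rest on the 1 KO naive 2 h library.

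**Figure D5:**
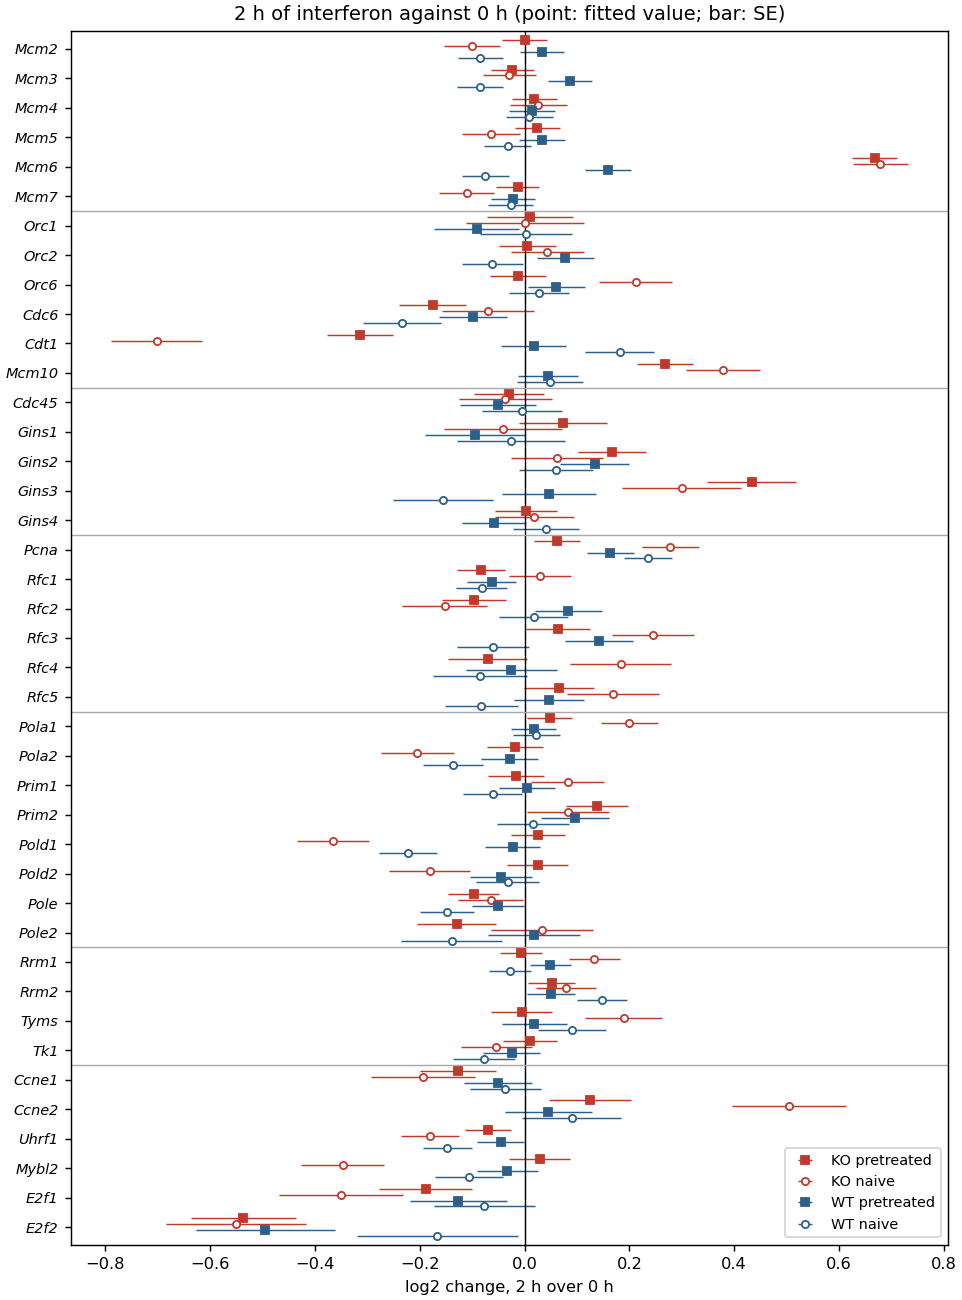
Log2 change, 2 h over 0 h of interferon, of the 41 genes in KO (red) and WT (blue), pretreated (filled squares) and naive (open circles); bars are standard errors of the fit. Mcm6 lies at 0.67 and 0.68 in KO pretreated and naive cells, and Cdt1 at −0.31 and −0.70.

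Other cell-cycle genes were read from lists of named genes. The shares of all genes called higher after pretreatment, given above, were 11.1% in KO and 12.6% in WT at 0 h and 11.2% and 13.2% at 2 h. Of 40 other replication genes, 24 were called higher after pretreatment in KO and 28 in WT at 0 h, and 18 and 31 at 2 h, with 0 lower. Topbp1, an activator of replication and of checkpoint signalling, changed by 0.28 in KO and 0.47 in WT at 0 h, and Hells, a chromatin remodeller, by 0.29 and 0.43. At 2 h Ticrr, which helps to bring CDC45 to origins, changed by 0.63 in both KO and WT, and Timeless, a fork protection factor, by 0.28 in KO and 0.69 in WT. Of 41 mitosis and G2/M genes, 30 were called higher in KO and 38 in WT at 0 h, and 11 and 41 at 2 h, with 0 lower. Foxm1, a G2/M transcription factor, changed by 0.44 in KO and 0.49 in WT at 2 h. The genotype difference at 2 h, which rests on the single KO naive 2 h library, was called lower for 23 mitotic genes, among them Ect2 (−0.59), Top2a (−0.38) and Mki67 (−0.38), and for 8 of the other replication genes, against 3.94% of all genes.

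Of 33 E2F, RB and cyclin-CDK regulators tested, 12 were called higher and 4 lower in KO at 0 h, and 17 higher and 5 lower in WT. Their changes at 0 h ran from −0.39 to 0.48 in KO and from −0.72 to 0.65 in WT. The gene with the largest fall in WT is not among those named below. At 2 h, 6 were higher and 2 lower in KO, and 15 higher and 4 lower in WT. The lower calls were 12.1% of the list in KO and 15.2% in WT at 0 h, against 10.6% and 11.4% of all genes, and 6.06% and 12.1% at 2 h, against 7.61% and 11.8%. E2f7, an atypical E2F that represses E2F targets, changed by 0.48 in KO and 0.65 in WT at 0 h, and Ccna2, the S phase cyclin, by 0.24 and 0.34. Ccnd1, a G1 cyclin, changed by 0.06 in KO (edgeR adjusted p = 0.32) and 0.32 in WT at 0 h, with a genotype difference of −0.26 at 0 h and −0.29 at 2 h (adjusted p = 0.0092 and 0.0038). Myc changed by 0.72 in KO and 0.26 in WT at 2 h, with a difference of 0.46 (edgeR adjusted p = 9.1e-04). Cdkn1b, which encodes the CDK inhibitor p27, had log2 changes of −0.30 ± 0.075 in KO and 0.06 ± 0.069 in WT at 2 h (edgeR adjusted p = 0.0042 and 0.63), with a difference of −0.36 ± 0.10 (adjusted p = 0.023), and of −0.29 ± 0.059 in KO and −0.12 ± 0.062 in WT at 0 h (adjusted p = 5.0e-04 and 0.16).

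The strand setting of the counting is not given in the sources used here, and by symbol 11 members overlap another counted gene. Reads in such an overlap may have been given to either gene or set aside as ambiguous. Overlapping genes not found by symbol among the counted genes, such as Ufd1 at Cdc45, are not in this number. The 11 members are Mcm7, Orc1, Gins2, Rfc4, Pold1, Pold2, Pole2, Tk1, Ccne2, Mybl2 and E2f1.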

How the data were processed

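The deposited tables, each for a single library, hold raw read counts per gene. The submitters' processing notes name STAR 2.5.2b, HTSeq, mm9 and bcl2fastq 2.15, while the sources used here give neither strand setting nor annotation. The 5 summary lines of each table were left out; reads in no gene were 35.1% to 41.3% of the reads in genes, in no gene or ambiguous. Genes passing filterByExpr (minimum count 10) were fitted in edgeR 4.0.16 (R 4.3.3) with TMM factors and the quasi-likelihood test, in 1 model of 8 groups over 15 libraries with 7 residual degrees of freedom. Adjusted p-values are Benjamini-Hochberg over all 13802 genes tested, and a gene was called below 0.05. The KO naive 2 h group has 1 library and is assumed to vary like the others. Replicates differed beyond counting error (chi-square per degree of freedom 1.93 to 4.81), so none was merged.

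The members and all gene lists were chosen with earlier results of these data known. Values per library are given for the 3 called members with the largest change in each comparison of pretreated with naive cells, the member with the largest change against the majority, and Pcna and Mcm2; for other lists up to 4 members with the smallest p in a comparison were eligible. All 41 members could be named with fitted changes, and those named beyond the per-library rule, such as Gins4, Tyms and E2f1, were chosen after their values were seen. Promoters and gene neighbours came from RefSeq tables of GRCm38.p6, matched by symbol, and no coordinate of the counting build was used. Alternatives were RLE factors, no filter, DESeq2 1.42.0, a replicate block, removal of Rn45s and Lars2, removal of 3 libraries, fits on the compared groups, and leaving out each library.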

Additional observations from a re-analysis of the deposited data

Results flagged for a closer look

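The genotype difference itself passed the edgeR test for 19 results among the members, each given as KO minus WT on the log2 scale. For the pretreatment effect at 0 h these were E2f2 (−0.75, adjusted p = 0.0069) and Mybl2 (−0.39, adjusted p = 0.0069). For the pretreatment effect at 2 h they were Cdc6 (−0.53), Pole2 (−0.51), Rfc3 (−0.43), Prim1 (−0.35), Orc2 (−0.29), Mcm3 (−0.27), Pola1 (−0.27) and Rrm1 (−0.24). For the interferon effect in pretreated cells they were Mcm6 (0.51), Gins3 (0.39) and Cdt1 (−0.33). For the interferon effect in naive cells they were Mcm6 (0.75), Gins3 (0.46), Ccne2 (0.41), Mcm10 (0.33), Rfc3 (0.31) and Cdt1 (−0.88). The differences at 2 h and in naive cells rest on 1 KO naive 2 h library. Among all genes tested, the pretreatment difference was called for 3.22% at 0 h and 9.04% at 2 h. The interferon difference was called for 9.03% in pretreated and 15.3% in naive cells. The 3 and 6 interferon calls among the 41 members do not exceed those last 2 shares.

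For E2f2 the KO levels were 10.7 to 11.5 CPM in all 4 libraries at 0 h, whereas in WT at 0 h they were 6.12 and 6.32 in pretreated and 3.77 and 2.89 in naive libraries. For Mcm6 the highest levels among the 15 libraries, 436 and 429 CPM, were in KO pretreated 2 h. Group sizes of 2 do not allow single libraries to be tested as outliers.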

How the results depend on the processing

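No result among the members changed sign past the threshold in any of the 21 alternative settings. Members called higher after pretreatment numbered, with 1 library left out, 28 to 34 in KO and 35 to 38 in WT at 0 h, and 23 to 28 in KO and 31 to 38 in WT at 2 h. DESeq2 called 32 and 36 at 0 h and 23 and 34 at 2 h. Of the called members, 23 of 34 in KO and 33 of 38 in WT at 0 h, and 21 of 28 and 30 of 37 at 2 h, kept the call in every setting. Leaving out the 3 libraries with little Rn45s and Lars2 reduced the lower calls of the genotype difference of the pretreatment effect to 1 at 0 h and 2 at 2 h, the interferon calls in WT naive cells to 1 higher and 0 lower and in WT pretreated cells to 0 higher, and the genotype difference of the interferon effect to 1 higher in naive and 0 lower in pretreated cells. The higher calls of that difference in naive cells were 3 with RLE factors, 1 with DESeq2 and 3 without Rn45s and Lars2, and in pretreated cells 1 under each of these and in the fit on the compared groups. DESeq2 called 2 members lower at 2 h in WT naive cells.

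With single libraries left out, the lower calls of the pretreatment difference ranged from 1 to 2 at 0 h (1 without KO naive 0 h replicate 1) and from 4 to 13 at 2 h (by library as given above). The interferon difference ranged from 1 to 5 higher in naive cells (1 without replicate 1 of WT naive 0 h or of KO naive 0 h), and from 1 to 2 higher and 0 to 1 lower in pretreated cells. The 2 h interferon calls ranged from 6 to 10 higher in KO naive (6 without KO naive 0 h replicate 1), 1 to 3 higher and 0 to 4 lower in WT naive (lowest without WT naive 0 h replicate 1), and 0 to 2 higher in WT pretreated cells (0 without WT pretreated 2 h replicate 1). The cause was not tested, beyond fewer libraries entering the fit. The lone KO naive 2 h library could not be left out. Groups share replicate numbers, but same-numbered libraries did not deviate together (correlations from −0.0185 to 0.0643 over 21 pairs of groups), so the numbers were not taken as pairs; with a replicate block the pretreatment counts were 34 in KO and 38 in WT at 0 h and 29 and 39 at 2 h. With the block, the lower calls of the pretreatment difference were 3 at 0 h and 12 at 2 h. Over all genes, calls fell to 1723 with DESeq2 in KO pretreated against naive at 2 h (2598 in edgeR). Without the 3 libraries they fell to 2172 in WT pretreated against naive at 0 h (3307 with all libraries), to 219 in the pretreatment difference at 0 h (445) and to 733 in the interferon difference in pretreated cells (1247). With 1 library left out, such counts fell at the lowest to 1674 to 2278 in the 4 comparisons of pretreated with naive cells, and to 262 and 778 in the pretreatment difference at 0 h and 2 h (1248 at 2 h with all libraries). For the 2 h change in WT naive cells they fell to 2737 without WT naive 0 h replicate 1 (4229). The share of calls that were higher at 2 h of interferon was 60.3% in WT naive and 65.2% in WT pretreated cells with DESeq2 (48.9% and 53.6% in edgeR). Groups of 1 or 2 libraries limit which small differences can be detected.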
